A study of Mus musculus with 6 samples.

Results

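The fibroblast growth factor (FGF) to ERK pathway was described by 10 genes in the mouse embryonic stem cell line E14: the ligand gene Fgf4, the receptor genes Fgfr1 and Fgfr2, the inhibitor genes Dusp6, Spry2, Spry4 and Spred1, and the transcription factor genes Etv4, Etv5 and Egr1. They were taken by symbol, and all 10 were found among the 31641 genes of the count table and passed its filter on low counts. Messenger RNA was sequenced from 3 control libraries (CON: Nat10 wild type, without doxycycline) and 3 knockdown libraries (KD: Nat10 knockdown, with doxycycline). Nat10 is the enzyme that places N4-acetylcytidine on RNA, and the study asked about its part in pluripotency and in the 2C state, a state of cultured stem cells that resembles the 2-cell embryo. Every KD library received the drug and no CON library did, so an effect of doxycycline and an effect of the knockdown cannot be told apart. The knockdown construct, the number of clones and the culture medium, and hence whether it held an inhibitor of ERK signalling, are not stated by the labels.

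In this pathway a secreted FGF binds a receptor tyrosine kinase on the cell surface with heparan sulfate as coreceptor, and the receptor passes the signal through adaptors to RAS, RAF, MEK and ERK. Active ERK switches on genes that include its own brakes: DUSP6, a phosphatase that removes phosphate from ERK, and the Sprouty and SPRED proteins, which block the signal between receptor and RAF. In mouse embryonic stem cells FGF4 is the main FGF the cells make for themselves, Fgf4 is a known target of OCT4 and SOX2, and ERK activity favours the exit from the naive state.

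The libraries held between 33770755 and 39524273 counts. Nat10 itself had 4960, 5496 and 4877 counts across CON, against 1100, 1164 and 1050 across KD, a 5.44-fold fall (edgeR adjusted p = 4.21e-14). Levels are given as CPM (a gene's share of all counts of its library on a common scale, with libraries scaled by TMM), as mean ± SD with n = 3 libraries, and folds are KD over CON. Where 3 values are given for a group they are those of libraries 1, 2 and 3 in that order. No label says that the 3 libraries of a group were separate cultures, and the p-values therefore rest on a spread that may be technical. KD-3 stood somewhat apart, with a chi-square per degree of freedom over genes of 14.3 against KD-1 and 10.7 against KD-2, where the other pairs within a group had 2.69 to 5.03. Of 8 stem cell markers (Pou5f1, Sox2, Nanog, Zfp42, Esrrb, Utf1, Tdgf1 and Dppa5a) all 8 were detected and all 8 fell, their summed level ranging from 6170 to 6210 CPM in CON and from 2170 to 2260 in KD. Markers of other cells that could be present summed to less: 24 to 28.2 CPM in CON and 51.4 to 56.8 in KD for the 6 of 8 fibroblast markers analysed, 345 to 355 and 268 to 278 for 8 primitive endoderm markers (mostly Col4a1), and 747 to 773 and 687 to 709 for 8 trophectoderm markers (mostly Krt18). None of these markers was at 0 in all 6 libraries. In such bulk libraries, fewer cells of a type and less RNA per cell cannot be told apart, and the part of the marker shifts in the results below was not tested.

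Among the 10 genes, the ligand, most of the brakes and the transcription factors fell in KD while both receptors rose. Of the 10 genes, 7 were lower in KD, 2 were higher and Spred1 did not pass. Over all 18019 genes tested, 30.8% were lower, 32.2% were higher and 63% were called in either direction. In 9 of the 10 genes the KD and CON libraries did not overlap, 7 with KD below CON and 2 with KD above, beside 67.1% of all genes tested (32.8% below and 34.4% above). The median log2 fold change of the 10 genes was -1, beside 0.02 for all genes tested. At least 2-fold falls were seen for Fgf4, Spry4, Etv4, Etv5 and Spry2, a size of fall that 7.11% of all genes tested reached. Neither rise was as large, where 9.73% of all genes rose at least 2-fold. With scaling by library size only, the falls of Etv5 and Spry2 were smaller than 2-fold (log2 fold changes -0.94 and -0.86). Without KD-3 the counts were 8 lower and 2 higher, Spred1 being added. With libraries scaled by their size only, 6 were lower and 3 higher (Egr1 left the falls and Spred1 joined the rises), beside 19.6% lower and 46% higher over all genes. That scaling moved the median of all genes up by 0.23 on the log2 scale and took the share of higher genes among all calls from 51.1% to 70.1%.

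**Figure D1:**
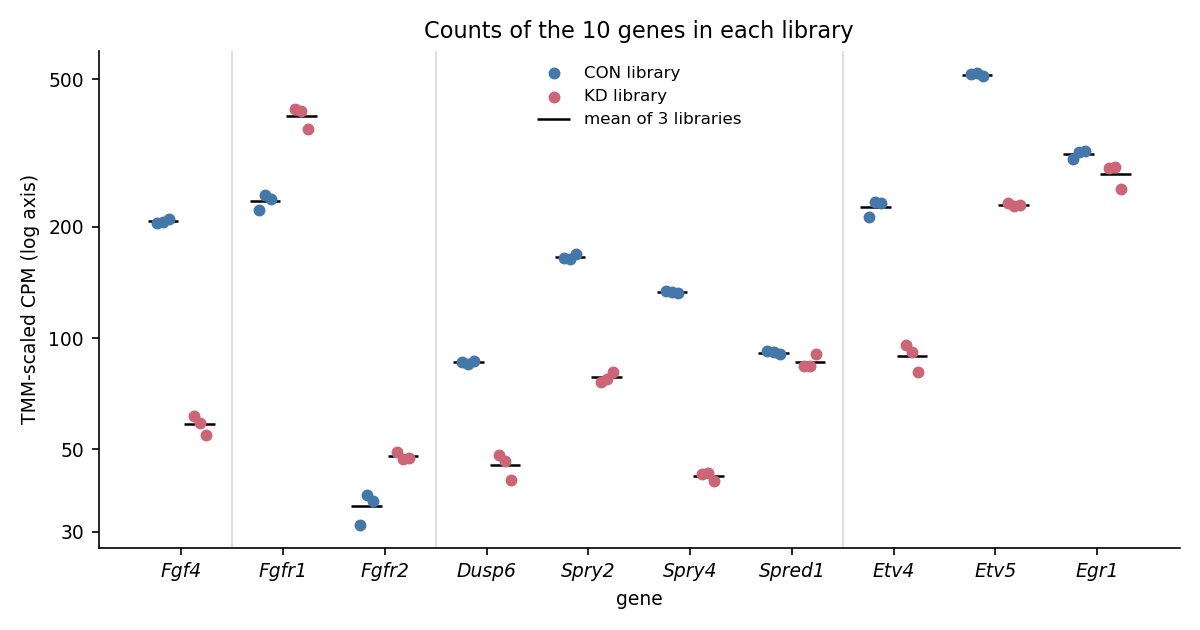
TMM-scaled CPM of each gene (log axis) in the 3 CON libraries (blue) and the 3 KD libraries (red), with black bars for group means; grey lines separate the ligand, the receptors, the inhibitors and the transcription factors. CON and KD overlap for Spred1 only, and KD lies above CON for the receptors Fgfr1 and Fgfr2.

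Promoter sequences are shown for the ligand gene, for 2 inhibitor genes and 1 transcription factor gene that fell with it, and for Spred1, which did not pass, to set their content of the ETS core side by side, the 4 bases GGAA that factors such as ETV4 and ETV5 bind. Each is the 250 bases before a RefSeq transcription start (GRCm38.p6), 5′ to 3′ on the strand of the gene, with each GGAA, or TTCC where the core is on the opposite strand, in capitals.
Fgf4, chr7:144861136-144861385 (forward strand): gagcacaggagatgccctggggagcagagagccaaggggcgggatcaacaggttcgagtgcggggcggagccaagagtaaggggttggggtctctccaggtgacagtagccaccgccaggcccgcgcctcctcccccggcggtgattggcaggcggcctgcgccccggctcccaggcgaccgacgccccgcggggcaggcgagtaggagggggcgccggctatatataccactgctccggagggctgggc
Dusp6, chr10:99262981-99263230 (forward strand): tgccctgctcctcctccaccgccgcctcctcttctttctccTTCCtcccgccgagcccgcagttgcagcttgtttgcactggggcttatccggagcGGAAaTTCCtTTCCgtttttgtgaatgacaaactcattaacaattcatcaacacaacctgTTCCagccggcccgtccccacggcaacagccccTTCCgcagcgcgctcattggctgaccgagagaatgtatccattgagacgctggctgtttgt
Spry2, chr14:105896820-105897069 (reverse strand): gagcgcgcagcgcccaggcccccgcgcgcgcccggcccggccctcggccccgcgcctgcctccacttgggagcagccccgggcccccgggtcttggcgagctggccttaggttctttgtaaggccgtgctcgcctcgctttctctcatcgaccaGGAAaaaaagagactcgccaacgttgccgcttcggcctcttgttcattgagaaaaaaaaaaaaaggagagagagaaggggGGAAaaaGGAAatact
Etv5, chr16:22438369-22438618 (reverse strand): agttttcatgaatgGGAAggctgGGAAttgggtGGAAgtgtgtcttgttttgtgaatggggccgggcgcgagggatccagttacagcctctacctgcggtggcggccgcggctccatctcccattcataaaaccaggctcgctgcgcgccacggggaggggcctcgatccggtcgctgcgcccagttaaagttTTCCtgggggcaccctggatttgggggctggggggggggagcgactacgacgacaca
Spred1, chr2:117120821-117121070 (forward strand): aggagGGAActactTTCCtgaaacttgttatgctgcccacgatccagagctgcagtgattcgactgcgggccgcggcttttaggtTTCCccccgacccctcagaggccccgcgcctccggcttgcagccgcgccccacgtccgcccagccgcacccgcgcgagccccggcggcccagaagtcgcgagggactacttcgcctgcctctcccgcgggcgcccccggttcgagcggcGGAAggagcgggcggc
The core occurred 0 times before Fgf4, 6 times before Dusp6, 3 times before Spry2, 4 times before this start of Etv5 and 4 times before Spred1. Before a second start of Etv5 it occurred 0 times, and before Fgfr2 2 times. Of all 32851 such windows 93.4% held at least 1 core, with a median of 3. The number of cores did not separate Fgf4, Dusp6, Spry2 and Etv5 from Spred1. No windows of Spry4, Etv4 and Egr1, which also fell, were used. Longer motifs were searched on both strands in windows of 300 bases, which reach 50 bases past the start. Neither CCGGAAG, a longer ETS motif that contains the core (8.86% of all windows), nor TGACGTCA, the CREB motif (1.79%), was in the 7 windows of these 6 genes. CACGTG, the E-box (7.15%), was in that of Fgfr2 alone, past the start. No match says only that these letters are not in these windows.

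Fgf4, the ligand gene, showed the largest fall of the 10. Across CON it had 204, 206 and 210 CPM, against 61.5, 58.9 and 54.6 across KD. Every KD library lay far below every CON library, on 6826 to 7490 counts in CON and 1999 to 2579 in KD. The mean fell 3.54-fold, from 207 ± 2.75 to 58.4 ± 3.47 CPM (log2 fold change -1.82, SE 0.052, edgeR adjusted p = 3.66e-13), and 1.86% of all genes tested had a lower log2 fold change. Fgf4 lies on the forward strand of chromosome 7, from 144847367 to 144865243 (GRCm38, GENCODE M21).

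The receptor genes moved the other way. Fgfr1 encodes the receptor that is the more abundant of the pair in these libraries. Its levels were 222, 243 and 238 CPM across CON, against 415, 411 and 368 across KD. All KD libraries were above all CON libraries, and the mean rose 1.7-fold from 234 ± 11.4 to 398 ± 26.1 CPM (log2 fold change 0.76, SE 0.053, edgeR adjusted p = 6.23e-09). Fgfr2 encodes the receptor known for its role in the primitive endoderm lineage. Its levels were 31.2, 37.6 and 36.3 CPM across CON, against 49.1, 47.1 and 47.4 across KD. The groups again did not overlap, and the mean rose 1.37-fold from 35.1 ± 3.38 to 47.9 ± 1.07 CPM (log2 fold change 0.45, SE 0.071, edgeR adjusted p = 4.91e-05). Fgfr1 lies on chromosome 8 from 25513654 to 25575718 and shares 164 exonic bases with Gm16159 on the opposite strand. The annotated Fgfr2 model runs from 130162451 to 133123350 on chromosome 7 and shares 314 of its 10328 exonic bases with Ctbp2 on the same strand. Reads in those shared bases cannot be assigned from the table.

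The balance between the receptors moved little. Fgfr1 made up 88.1, 87.1 and 87.3% of the summed FPKM of the 2 receptors across CON, against 89.8, 90.1 and 89% across KD, FPKM being the authors' counts divided by gene length and by the library's total. The share was higher in all 3 KD libraries, by 2.16 percentage points (87.5 ± 0.54 against 89.7 ± 0.567%, n = 3 per group). A 2-sided exact permutation test gave p = 0.1, the smallest that 3 libraries against 3 allow. The ratio of Fgfr1 to Fgf4 in FPKM was 0.367 ± 0.0159 in CON and 2.21 ± 0.0457 in KD, so that the receptor's level per length was below that of the ligand in CON and above it in KD.

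Of the 4 inhibitor genes 3 fell. Spry4, a Sprouty gene on chromosome 18, had 134, 133 and 132 CPM across CON, against 42.9, 43.3 and 41.2 across KD. These tight groups lay 3.13-fold apart (133 ± 1.01 and 42.5 ± 1.09 CPM, log2 fold change -1.65, SE 0.049, edgeR adjusted p = 5.67e-13). Spry2, its paralog on chromosome 14 (105891947 to 105896819), had 165, 164 and 169 CPM across CON, against 76.1, 77.7 and 81.1 across KD. It too was lower in every KD library, falling 2.12-fold from 166 ± 2.93 to 78.3 ± 2.56 CPM (log2 fold change -1.08, SE 0.047, edgeR adjusted p = 3.09e-11). Per length, Spry2 stood 2.84 ± 0.0684 times as high as Spry4 in CON and 4.2 ± 0.24 times in KD, with no overlap between the groups. Dusp6, the ERK phosphatase gene, had 86.3, 85.3 and 86.8 CPM across CON, against 48.4, 46.5 and 41.4 across KD. KD-3 was the lowest of the 6, and the mean fell 1.9-fold from 86.1 ± 0.751 to 45.4 ± 3.62 CPM (log2 fold change -0.92, SE 0.061, edgeR adjusted p = 3.66e-09).

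Spred1, a membrane inhibitor of RAS signalling, did not follow the other brakes. Its levels were 92.1, 91.5 and 90.3 CPM across CON, against 84.1, 84.1 and 90.7 across KD. KD-3 lay inside the range of the CON libraries and the other KD libraries below it. The means were 91.3 ± 0.887 and 86.3 ± 3.82 CPM (log2 fold change -0.08, SE 0.05, edgeR adjusted p = 0.17). Without KD-3 the gene passed as lower (log2 fold change -0.12, edgeR adjusted p = 0.0128), and scaled by library size only it passed as higher (log2 fold change 0.15, edgeR adjusted p = 0.0176), so no direction is given for it.

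Etv4 and Etv5, which encode ETS transcription factors of the PEA3 family and are common readouts of FGF signalling, fell together. Etv5 had 516, 519 and 511 CPM across CON, against 231, 227 and 229 across KD. The libraries of each group agree closely, and the mean fell 2.25-fold from 515 ± 4.26 to 229 ± 2.24 CPM (log2 fold change -1.17, SE 0.039, edgeR adjusted p = 1.84e-12). Etv4 had 212, 233 and 232 CPM across CON, against 95.5, 91.8 and 81.1 across KD. It was more spread than Etv5 and still without overlap, falling 2.52-fold from 226 ± 11.5 to 89.4 ± 7.48 CPM (log2 fold change -1.33, SE 0.061, edgeR adjusted p = 5.75e-11). Per length, the ratio of Etv5 to Etv4 was 1.84, 1.69 and 1.67 across CON, against 1.83, 1.87 and 2.13 across KD, ranges that overlap. Etv4 lies on chromosome 11 (101769742 to 101785371) and Etv5 on chromosome 16 (22381309 to 22439719), both on the reverse strand.

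Egr1, an immediate early gene that ERK switches on through serum response elements, changed least among the genes that passed. Across CON it had 304, 318 and 321 CPM, against 288, 290 and 253 across KD. The KD libraries were all below the CON libraries, with KD-3 the lowest, and the mean fell 1.13-fold from 314 ± 9.08 to 277 ± 20.4 CPM (log2 fold change -0.18, SE 0.052, edgeR adjusted p = 0.00689). Library size scaling alone turned its sign, and the gene did not pass (log2 fold change 0.05, edgeR adjusted p = 0.425), and the authors' FPKM of the groups overlapped.

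**Figure D2:**
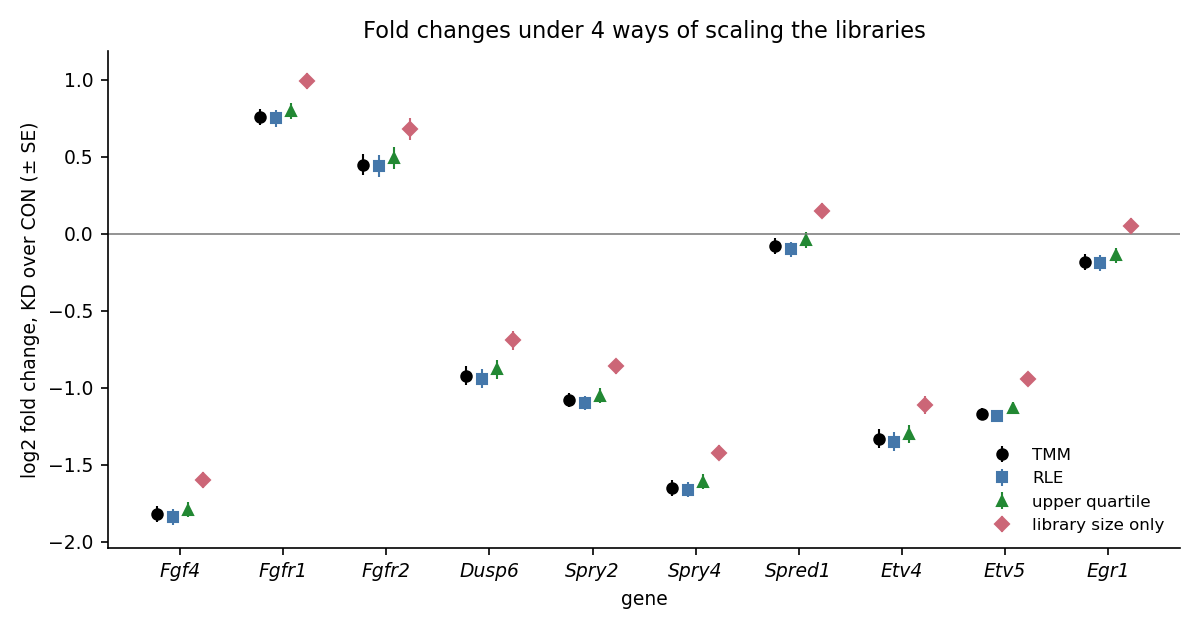
Points are the log2 fold change of KD over CON for each gene, from edgeR. Libraries were scaled by TMM, by RLE, by upper quartile or by library size only. Bars are the standard error (SE), derived from the F statistic of the test. Library size alone moves every gene up, which changes the sign of Spred1 and Egr1 and of no other gene shown.

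Levels of different genes were compared by the authors' FPKM, which divide by gene length. In CON the order was Etv5 (116 ± 1.07), Spry2 (73.4 ± 1.25), Etv4 (67.1 ± 3.27), Egr1 (64.6 ± 1.71), Fgf4 (59.7 ± 0.689), Spry4 (25.8 ± 0.255), Dusp6 (25.4 ± 0.242), Fgfr1 (21.9 ± 1.01), Spred1 (12.4 ± 0.146) and Fgfr2 (3.13 ± 0.295). Of these neighbours Etv4 and Egr1 overlapped between libraries. In KD the order was Egr1 (66.8 ± 4.86), Etv5 (60.4 ± 0.469), Fgfr1 (43.6 ± 2.81), Spry2 (40.6 ± 1.4), Etv4 (31.2 ± 2.55), Fgf4 (19.8 ± 1.14), Dusp6 (15.7 ± 1.22), Spred1 (13.8 ± 0.628), Spry4 (9.66 ± 0.24) and Fgfr2 (5.01 ± 0.1). Fgfr1 and Spry2 overlapped there, as did Dusp6 and Spred1. Fgfr1 thus moved from the eighth place to the third and Spry4 from the sixth to the ninth, while Fgfr2 was the lowest in both groups.

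**Figure D3:**
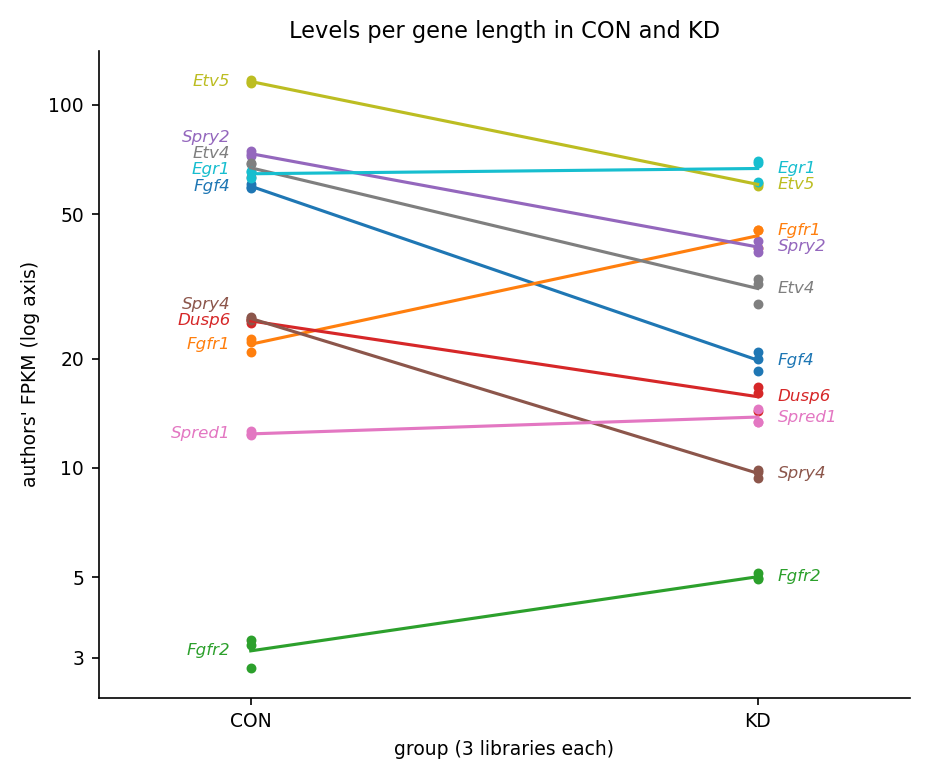
The authors' FPKM of each gene (log axis) in CON and KD, with a point per library and a line between group means. The rising line of Fgfr1 crosses the falling lines of Dusp6, Spry4, Fgf4, Etv4 and Spry2, with KD libraries that overlap those of Spry2, and Fgfr2 stays lowest at 3.13 in CON and 5.01 in KD.

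Other FGF ligand genes were scarce in both groups. Together the other 17 summed to 15.8 to 18.4 CPM in CON and 8.57 to 9.62 in KD. Fgf4 alone had 207 CPM in CON and 58.4 in KD. These CPM are not divided by gene length, so the size of the gap is rough. Of 11 with enough counts to be tested 5 fell (45.5%) and 1 rose (9.09%), beside 30.8% and 32.2% of all genes tested. The median log2 fold change of the 11 was -0.67. Scaling by library size only gave 5 falls and 2 rises, beside 19.6% and 46% of all genes. Fgf17, of the FGF8 subfamily, fell 2.99-fold, from counts of 144, 160 and 100 to 36, 58 and 63 (edgeR adjusted p = 2.78e-05). Fgf3 fell from 43, 36 and 42 counts to 10, 16 and 5 (edgeR adjusted p = 0.000144), and the stress hormone gene Fgf21 from 86, 122 and 79 counts to 0, 4 and 2 (edgeR adjusted p = 2.43e-08). Fgf18 rose, from 11, 2 and 8 counts to 34, 26 and 19 (edgeR adjusted p = 0.0104), but not without CON-2 (edgeR adjusted p = 0.0508). The number that rose was 2 without CON-1, CON-3 or KD-3. Fgf10 and Fgf22 did not pass, with 1.79 and 0.565 CPM in CON and 1.71 and 0.838 in KD, though Fgf22 passed as higher under library size scaling alone (edgeR adjusted p = 0.0482).

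The other receptor and coreceptor genes did not share the rise of Fgfr1 and Fgfr2 as a group. Of 10 tested 3 fell (30%) and 2 rose (20%), beside 30.8% and 32.2% of all genes tested (median log2 fold change -0.09). Scaled by library size only, 3 fell and 4 rose, beside 19.6% and 46% of all genes. Fgfr3 fell 2.71-fold, from 6.44 ± 0.282 to 2.38 ± 0.261 CPM, and Fgfr4 1.72-fold, from 10.2 ± 0.54 to 5.92 ± 0.316 CPM. The receptor-like gene Fgfrl1, whose product lacks the kinase domain, rose 1.76-fold from 20.5 ± 1.39 to 35.9 ± 5.49 CPM. Among proteoglycans that carry heparan sulfate, Gpc3 rose 1.37-fold and Sdc4 fell 1.28-fold, while Gpc4 (67.1 and 69.3 CPM) and Sdc1 (41.7 and 38.5 CPM) did not pass. Gpc4 passed as higher under library size scaling alone (log2 fold change 0.28, edgeR adjusted p = 0.00019).

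Of 12 genes for enzymes that build or trim heparan sulfate 5 rose (41.7%) and 4 fell (33.3%). Of all genes tested 32.2% rose and 30.8% fell. The median log2 fold change of the 12 was 0.1. Scaled by library size only, 7 rose and 1 fell, beside 46% and 19.6% of all genes. Hs6st2, a 6-O-sulfotransferase gene, rose 4.2-fold from 2.52 ± 0.48 to 10.6 ± 0.417 CPM. The chain-building gene Ext2 rose 1.68-fold and the sulfotransferase gene Ndst2 1.59-fold. Sulf2, whose product removes 6-O-sulfate outside the cell, fell 1.32-fold from 294 ± 12.7 to 222 ± 3.65 CPM. Sulf1 and Hs6st1 fell 1.29-fold each, and neither passed with libraries scaled by size only. Extl3 and Ndst1 did not pass, and both passed as higher under that scaling, Extl3 also without KD-3 (edgeR adjusted p = 0.0301) and with upper quartile scaling (edgeR adjusted p = 0.0331).

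The relay from receptor to ERK showed smaller changes. Of 22 genes 12 fell (54.5%) and 4 rose (18.2%), beside 30.8% and 32.2% of all genes tested (median log2 fold change -0.18). Scaled by library size only, the balance turned to 5 falls and 9 rises, beside 19.6% and 46% of all genes. Among the falls, Nras, which encodes a RAS GTPase, fell 1.68-fold, from 167 ± 7.72 to 99.9 ± 5.16 CPM (SD, n = 3). The scaffold gene Ksr1 rose 1.89-fold, the exchange factor gene Sos2 1.57-fold and the adaptor gene Grb2 1.28-fold. The MEK genes did not pass, Map2k1 with 184 and 173 CPM and Map2k2 with 150 and 156 CPM, but both calls depended on the setting. Map2k1 passed as lower with RLE scaling (edgeR adjusted p = 0.0497) and without KD-3 (edgeR adjusted p = 0.0294), and as higher under library size scaling alone (log2 fold change 0.14). Map2k2 passed as higher under library size scaling alone (log2 fold change 0.29, edgeR adjusted p = 0.00541) and without KD-3 (edgeR adjusted p = 0.00222).

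Of 19 other negative regulators tested 7 rose (36.8%) and 4 fell (21.1%), beside 32.2% and 30.8% of all genes tested. The median log2 fold change of the 19 was -0.04. Scaled by library size only, 11 rose and 1 fell, beside 46% and 19.6% of all genes. The number that rose was 3 without CON-2 or KD-2 and 4 without CON-3. Dusp4, an ERK phosphatase gene like Dusp6, fell 2.87-fold from 88.8 ± 2.17 to 31 ± 1.78 CPM. Dusp1 and Cbl fell 1.27-fold each, and neither passed with libraries scaled by size only. Lztr1, whose product promotes the degradation of RAS proteins, rose 1.74-fold from 47.1 ± 3.07 to 82.1 ± 1.78 CPM. Dusp5 rose 1.24-fold, and Dusp2 rose from 38, 54 and 18 counts to 146, 135 and 69. Dusp9 (289 and 314 CPM) and Pebp1 (307 and 290 CPM) did not pass, though Dusp9 passed as higher without KD-3 (edgeR adjusted p = 1.06e-05), with no count filter (edgeR adjusted p = 0.0315) and with upper quartile scaling (edgeR adjusted p = 0.0306). Under library size scaling both passed as higher, at log2 fold changes of 0.35 and 0.15. The list holds the other Sprouty genes Spry1 and Spry3, which are named here after their values were seen. Spry1 did not pass, at 22 ± 0.544 CPM in CON against 20.9 ± 2.36 in KD (edgeR adjusted p = 0.486), and its sign turned under library size scaling (log2 fold change 0.16). Spry3, at low counts of 22, 14 and 18 in CON against 36, 52 and 36 in KD, passed as higher (log2 fold change 0.95, edgeR adjusted p = 0.0219). It did not pass with DESeq2 (adjusted p = 0.0683), nor without CON-2 (edgeR adjusted p = 0.0813) or KD-2 (edgeR adjusted p = 0.103).

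Of 22 other ERK-responsive and ETS transcription factor genes and targets 8 rose and 8 fell, 36.4% each, beside 32.2% and 30.8% of all genes. The median log2 fold change of the 22 was 0.05. Scaled by library size only, 12 rose and 7 fell, beside 46% and 19.6% of all genes. Etv1, the third PEA3 gene, fell 2.12-fold from 31.3 ± 3.19 to 14.8 ± 1.74 CPM, in the same direction as Etv4 and Etv5. Ccnd1, which encodes cyclin D1, fell 1.95-fold and Elk1, a ternary complex factor gene, 1.63-fold. The immediate early genes Fosb and Fos rose 1.54-fold and 1.53-fold, Fosb from 170 ± 2.77 to 262 ± 8.96 CPM and Fos from 142 ± 2.21 to 217 ± 9.15 CPM. Ier5 rose 2.04-fold from 20.1 ± 0.364 to 41.1 ± 4.98 CPM. Other immediate early genes of the list, named here after their values were seen, went both ways. Ier2 fell 1.34-fold from 225 ± 11.1 to 168 ± 22.9 CPM, beside 1.13-fold for Egr1. Jun rose 1.53-fold from 70.3 ± 4.51 to 107 ± 7.22 CPM and Junb 1.33-fold from 177 ± 13.7 to 236 ± 29.2 CPM. The EGR family genes Egr2 and Egr3 rose at low levels, while Egr4, Fosl1 and Fosl2 did not pass. Egr2 went from 38, 30 and 28 reads to 95, 90 and 74 (log2 fold change 1.19) and Egr3 from 15, 13 and 12 reads to 56, 35 and 37 (log2 fold change 1.43). Ets2 and Ier3 did not pass, and both passed as higher under library size scaling alone, Ier3 also without KD-3 (edgeR adjusted p = 0.0439).

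**Figure D4:**
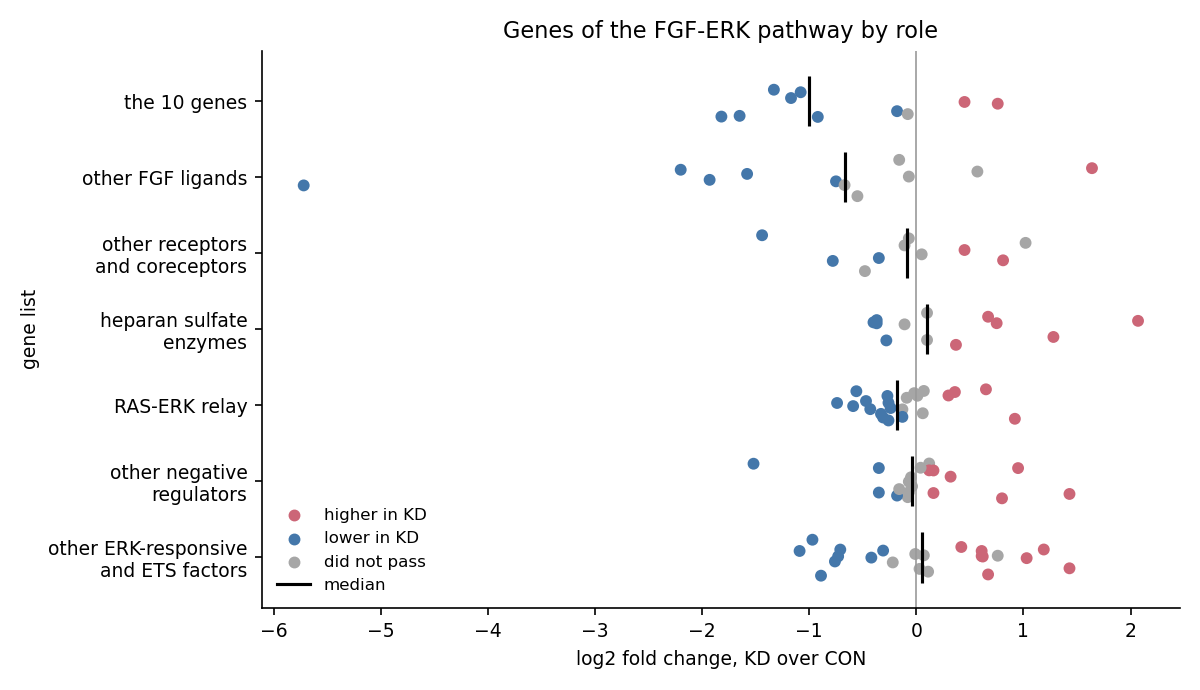
Log2 fold change of KD over CON for each tested gene of the pathway, by role, coloured by its edgeR call, with a black line for the median of the list. The median is -1 for the 10 genes and -0.67 for the other ligands, and between -0.18 and 0.1 for the other lists.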

How the data were processed

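Poly(A)-selected RNA of 6 libraries was measured. Per the submitters' processing notes, FastQC 0.11.9, STAR 2.5.3a, featureCounts and the build mm10 were used; annotation release, strand setting and handling of multi-mapped reads were not given. The authors deposited raw counts per gene and FPKM, whose gene lengths equal the merged exons of GENCODE M21 for all 10 genes. The deposited table also gives the authors' log2 fold change, which by its sign is CON over KD, and adjusted p-value. Of counts from 1 to 20, 70 to 71.7% were even, so halved counts were tried.

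With edgeR 4.0.16 (R 4.3.3), filterByExpr removed low genes, libraries were scaled by TMM (factors 0.9222 to 0.9265 in CON, 1.08 to 1.084 in KD) and groups were compared by the robust quasi-likelihood test. Benjamini-Hochberg adjustment ran over 18019 genes, with a threshold of 0.05. The SE of an edgeR fit is the absolute log2 fold change divided by the square root of the F statistic of that test. The test was run on simulated data for this comparison (17674 genes), where 95% of 100 genes changed 2-fold and 77% of 100 changed 1.3-fold were recovered, with 13 false calls. No other gene was changed there, whereas 63% of genes tested were called in these data. The simulation also held no difference in scaling between groups like that of the TMM factors, so its rates need not hold here. Alternatives included DESeq2 1.42.0. The 10 genes and the lists were chosen with earlier results of these data known, which is why no list was tested as a set. Named list genes are up to 3 per direction with the smallest p and no overlap between groups, plus the 2 most abundant that did not pass. Some genes that this rule picks are not reported here.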

Additional observations from a re-analysis of the deposited data

How the results depend on the processing

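For Fgf4, Fgfr1, Fgfr2, Dusp6, Spry2, Spry4, Etv4 and Etv5 the direction and the call were the same in all 14 alternatives, with log2 fold changes of -1.87 to -1.6 for Fgf4 and 0.36 to 0.68 for Fgfr2. With libraries scaled by size only, Egr1 had a log2 fold change of 0.05 and Spred1 of 0.15, and without KD replicate 3 Spred1 passed at -0.12 (range without 1 library -0.12 to -0.07). Why the scalings differ, and why Spred1 passed without KD-3, was not tested. Scaling by size only moved the median of all genes up by 0.23 on the log2 scale. Under that scaling 3535 of all genes were lower in place of 5543. The other ligands then had 2 higher, the other receptors 4 higher, the heparan sulfate enzymes 1 lower, the relay 9 higher and 5 lower, and the other negative regulators 11 higher and 1 lower. The signs of Fgf10 (0.16), Sdc1 (0.12), Map2k1 (0.14), Pebp1 (0.15), Spry1 (0.16) and Ets2 (0.21), none of which had passed, turned as well. Ets2 also turned with upper quartile scaling, added after seeing the data (0.02), and, without 1 library, Ets2 ranged from -0.04 to 0.01 (above 0 without CON-3), Fgf10 from -0.24 to 0.05 (above 0 without CON-2 or KD-2) and Map2k2 from -0.02 to 0.16 (below 0 without CON-1 or KD-1).

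Of the other ligands 2 were higher with DESeq2 and with no count filter, and 0 were higher and 3 lower at 1 CPM in 3 libraries, which tests fewer genes. Leaving out 1 library gave 0 to 2. The other negative regulators had 4 higher with DESeq2, 4 higher with the replicate block and 3 to 8 without 1 library. Deviations from the group means gave no sign of pairing by replicate number (correlations of -0.061, 0.015 and -0.039 between same-numbered libraries). This cannot show that same-numbered libraries were not prepared together. The replicate block moved no other count by over 1.5 times and changed the call of none of the 10 genes. Dividing the FPKM by the TMM factors gave 64.7 and 18.3 for Fgf4 in CON and KD, 23.7 and 40.3 for Fgfr1, 79.5 and 37.5 for Spry2, 28 and 8.93 for Spry4, 13.5 and 12.7 for Spred1, 125 and 55.8 for Etv5, and 70 and 61.7 for Egr1. It gave 27.5 for Dusp6 and 72.6 for Etv4 in CON, and 4.63 for Fgfr2 in KD. The Fgfr1 share of both receptors rose by 1.93 to 2.48 percentage points without 1 library.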

Other observations

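The authors' deposited table labels Fgf4, Spry2, Spry4, Etv4 and Etv5 as changed, with log2 fold changes, turned as CON over KD, of 1.83, 1.1, 1.66, 1.35 and 1.18. It labels Dusp6 as unchanged at a log2 fold change of 0.93 with an adjusted p of 8.05e-40, and likewise Fgfr1 at -0.75 with 2.82e-35 and Fgfr2 at -0.44 with 5.08e-07. In the authors' deposited table the rise of both receptors and the fall of the ERK phosphatase gene are therefore seen in the values and not in the labels.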
